A study of Mus musculus with 19 samples.

Results

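Binding sites of the corepressor CBFA2T2 were examined at 43 mouse genes that mark neural stem cells or belong to the Notch pathway, out of 21900 protein-coding genes in the RefSeq annotation. The genes were chosen by their known roles, with the number of CBFA2T2 peaks at such genes in both genotypes already known. Their counts are therefore a description, and no test was made on them. Peaks were taken if any part lay inside the gene or within 5 kb of it. The sites came from chromatin immunoprecipitation sequencing (ChIP-seq) in NE-4C, a p53-deficient neural stem cell line from mouse brain. All cells used here lacked H3f3a, which encodes the histone variant H3.3, and stably expressed an HA-tagged H3.3 in its place. In H3.3WT cells the tagged histone was wild-type. In H3.3K27M cells it carried methionine at the position of lysine 27, the change known from diffuse midline glioma. The series lists 19 ChIP and input libraries from 3 genotypes, and the peak lists of 2 libraries were used, 1 per genotype, the H3.3WT list holding 6920 peaks and the H3.3K27M list 8272. The CBFA2T2 ChIP of cells without Cbfa2t2 was not analysed here, so how many of the peaks depend on the protein was not tested. Whether a line was derived from 1 clone is not given in the sources used here. With 1 library per genotype no difference between the genotypes can be tested, and the depth of both libraries is unknown. Peaks do not measure transcription, so the labelled cell type could not be checked against the expression of its markers.

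Notch is a receptor that is cut after it binds a ligand of the Delta (Dll) or Jagged (Jag) family on a neighbouring cell. Its freed intracellular part joins the DNA-binding protein RBPJ and a Mastermind (MAML) coactivator and switches on HES and HEY genes, repressors that keep neural stem cells from becoming neurons. Without that signal RBPJ works with corepressors, and CBFA2T2 belongs to a family of corepressors (MTG or ETO proteins) that bind histone deacetylases. SOX transcription factors, the intermediate filament proteins nestin and vimentin, and FGF receptors are other hallmarks of neural stem cells.

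Of the 43 genes, 25 (58.1%) had a peak within 5 kb in at least 1 list, beside 40.8% of all protein-coding genes. The other 18 (41.9%) had none in either, beside 59.2%. In H3.3WT, 16 genes (37.2%) had such a peak, beside 32.7% of all protein-coding genes. In H3.3K27M, 22 genes (51.2%) had one, beside 37.2% of all. Among peaks of at least 5 fold the share of the listed genes did not exceed that of all genes: 11 genes (25.6%) had one in each list, where the H3.3WT list had 5605 (25.6%) of all 21900 genes and the H3.3K27M list 5695. The peaks numbered 23 in H3.3WT and 31 in H3.3K27M. Most were weak for their list. The fold enrichment, the authors' ratio of ChIP signal at the peak summit over the local background, had a median of 5.53 over the 23 peaks against 6.21 over all H3.3WT peaks. In H3.3K27M the medians were 4.78 over the 31 peaks and 5.63 over all. The −log10 q of the peak caller, a measure of how clearly a peak stands out, gave the same order, with medians of 6.09 and 9.64 in H3.3WT and 5.88 and 9.48 in H3.3K27M. The highest quartile of −log10 q held 2 of the peaks in each list, while the lowest quartile held 8 of the 23 H3.3WT peaks and 13 of the 31 H3.3K27M peaks.

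**Figure D1:**
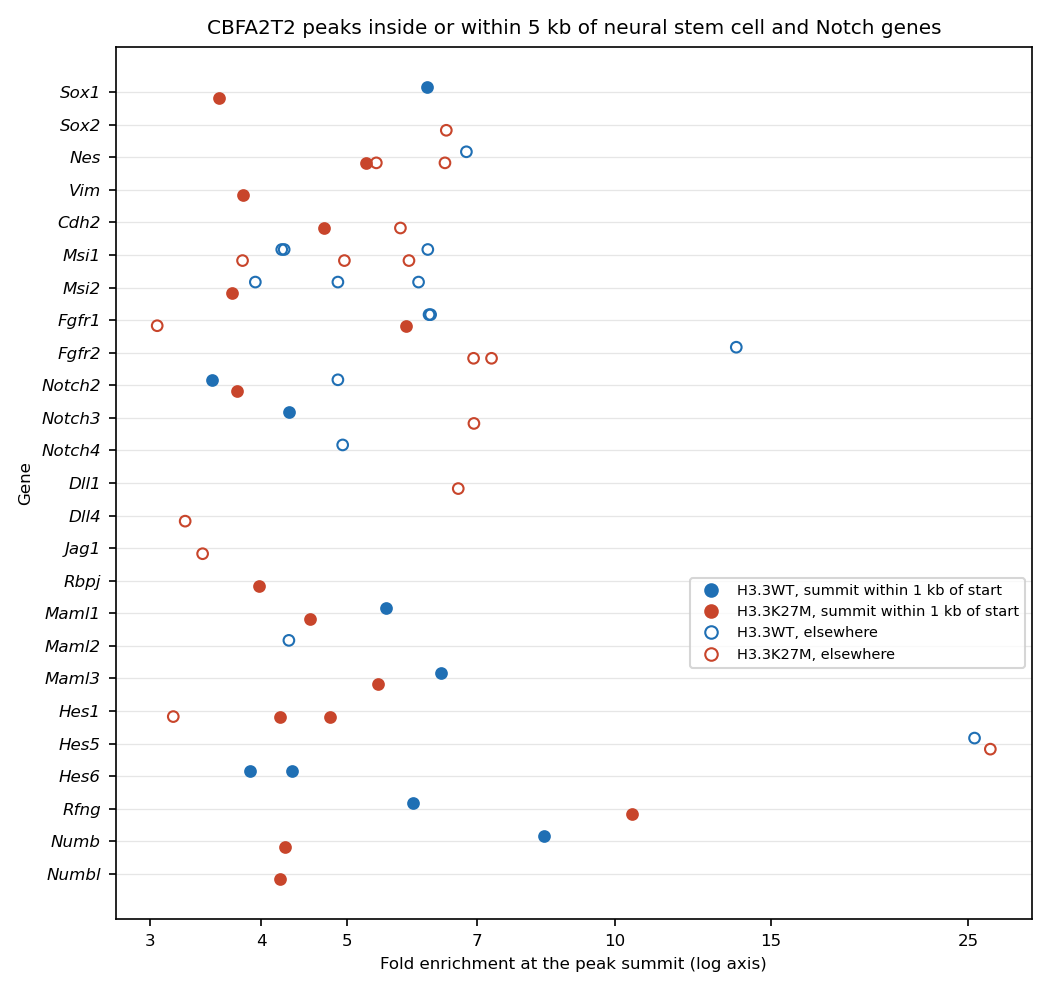
Fold enrichment (horizontal log axis) of every CBFA2T2 peak inside or within 5 kb of the 25 genes that had one, by gene, in the H3.3WT list (blue) and the H3.3K27M list (red). Filled points have their summit within 1 kb of a gene start and open points lie elsewhere. Most points fall between 3 and 8 fold, while the peak beyond Hes5 stands at 25.4 and 26.5.

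A peak was counted at the start of a gene if its summit lay within 1 kb of an annotated transcription start. The promoter table of RefSeq gave the starts of 33 of the 43 genes. For Cdh2, Fgfr1, Hes1, Hey1, Heyl, Mfng, Mib1, Msi1, Sox3 and Sox9 either end of the gene was taken in its place. Start peaks were found at 8 of 43 genes (18.6%) in H3.3WT, beside 25.6% of all genes. In H3.3K27M they were found at 14 (32.6%), beside 29.6% of all. This order turned with stricter thresholds, to 18.6% beside 24.6% at −log10 q of at least 5 and 9.30% beside 19.9% at 5 fold or more. Of the 33 genes with a promoter entry, 8 had a start peak in H3.3WT and 11 in H3.3K27M. Over all genes with such an entry the shares were 26.7% and 30.9%. Of the 10 genes taken at either end, 0 had one in H3.3WT and 3 in H3.3K27M (Cdh2, Fgfr1 and Hes1). Over all genes taken that way the shares were 21.4% and 24.5%. Both lists had a start peak at Sox1, Notch2, Maml1, Maml3, Rfng and Numb, which is 14.0% of the genes beside 22.8% of all. The H3.3K27M list alone had one at Nes, Vim, Cdh2, Msi2, Fgfr1, Rbpj, Hes1 and Numbl, which is 18.6% beside 6.78% of all. The H3.3WT list alone had one at Hes6 and Notch3, which is 4.65% beside 2.80% of all. The peaks behind these 8 H3.3K27M calls were low, with a median of 4.20 fold and −log10 q of 4.46. Over all 1485 genes marked in that list alone the medians were 4.44 fold and 5.24. In H3.3K27M the 6 listed genes marked in both lists had medians of 4.39 fold and 6.51, and all 5001 genes marked in both 7.21 fold and 16.8. At −log10 q of at least 5, 3 of the 8 (Nes, Fgfr1 and Hes1) kept their start peak, and at 5 fold or more 2 did (Nes and Fgfr1). With the fold threshold, the H3.3WT list alone marked 3 of the 43 genes and the H3.3K27M list alone 2, beside 4.06% and 4.35% of all genes.

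**Figure D2:**
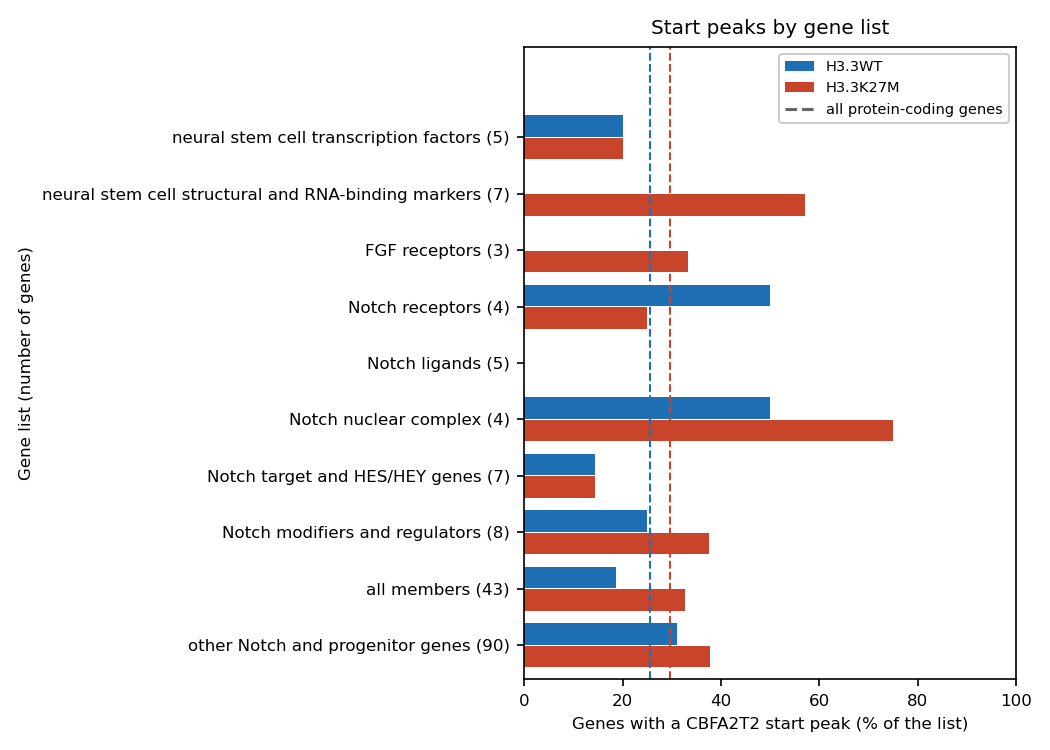
Percentage of genes (horizontal axis, from 0) with a CBFA2T2 start peak in the H3.3WT list (blue) and the H3.3K27M list (red), for the 8 groups of the 43 genes, for all 43 and for 90 other Notch and progenitor genes. Dashed lines mark all protein-coding genes, 25.6% and 29.6%. Groups hold 3 to 8 genes, so 1 gene moves a bar by 12.5 points or more.

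Sequences before the start are shown for 4 genes whose start peak reached them (Sox1, Nes, Notch2 and Numb) and for 2 Notch pathway genes picked because they hold the RBPJ motif and had no peak (Lfng and Hey2). They come from the RefSeq promoter table of build GRCm38.p6, which is mm10, and run 5′ to 3′ on the strand of the gene up to the base before its annotated span. Capitals mark TGGGAA, the core of the RBPJ motif, and CCAAT, the motif of the factor NFY, on either strand. The stretches lie at chr8:12395269-12395518 (plus strand) for Sox1, chr3:87970843-87971092 (plus) for Nes, chr3:98013288-98013537 (plus) for Notch2, chr12:83921943-83922184 (minus) for Numb, chr5:140607091-140607340 (plus) for Lfng and chr10:30842784-30843033 (minus) for Hey2.
Sox1: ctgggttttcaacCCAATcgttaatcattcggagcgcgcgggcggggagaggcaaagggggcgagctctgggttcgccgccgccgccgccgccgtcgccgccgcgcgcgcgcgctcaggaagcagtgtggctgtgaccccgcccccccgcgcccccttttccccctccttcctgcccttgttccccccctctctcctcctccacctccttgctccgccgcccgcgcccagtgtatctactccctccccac
Nes: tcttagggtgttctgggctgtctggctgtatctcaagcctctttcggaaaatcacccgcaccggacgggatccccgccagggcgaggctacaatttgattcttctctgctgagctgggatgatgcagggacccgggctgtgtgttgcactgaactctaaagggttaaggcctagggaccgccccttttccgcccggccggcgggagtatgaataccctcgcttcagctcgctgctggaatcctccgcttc
Notch2: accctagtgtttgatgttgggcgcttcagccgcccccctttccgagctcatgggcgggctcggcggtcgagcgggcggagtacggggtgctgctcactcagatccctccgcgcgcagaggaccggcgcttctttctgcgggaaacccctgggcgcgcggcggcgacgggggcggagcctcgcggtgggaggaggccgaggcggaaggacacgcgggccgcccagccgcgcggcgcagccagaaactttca
Numb: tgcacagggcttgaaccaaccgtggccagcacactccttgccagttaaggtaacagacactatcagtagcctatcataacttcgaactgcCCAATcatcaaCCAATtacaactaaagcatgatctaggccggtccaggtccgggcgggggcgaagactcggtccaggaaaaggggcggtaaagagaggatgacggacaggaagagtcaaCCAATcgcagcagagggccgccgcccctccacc
Lfng: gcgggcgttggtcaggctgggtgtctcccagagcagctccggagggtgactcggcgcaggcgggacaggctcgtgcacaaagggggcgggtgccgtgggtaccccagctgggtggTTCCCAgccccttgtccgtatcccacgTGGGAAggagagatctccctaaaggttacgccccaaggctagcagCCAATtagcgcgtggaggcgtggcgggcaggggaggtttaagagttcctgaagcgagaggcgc
Hey2: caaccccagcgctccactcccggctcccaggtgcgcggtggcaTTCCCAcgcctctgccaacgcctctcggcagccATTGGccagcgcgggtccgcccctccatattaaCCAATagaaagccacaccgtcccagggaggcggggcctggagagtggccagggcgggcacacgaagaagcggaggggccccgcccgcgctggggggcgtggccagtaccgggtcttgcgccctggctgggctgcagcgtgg

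The H3.3WT peak covered all 250 printed bases of Sox1 and the H3.3K27M peak none. For Nes the H3.3K27M peak covered 190 of the 250 bases and the H3.3WT list had no peak there. At Notch2 the peaks covered 155 bases in H3.3WT and 167 in H3.3K27M, and at Numb 242 and 171 of 242. The 4 covered stretches hold no match to TGGGAA. Lfng holds 2 and Hey2 holds 1, and neither gene had a peak within 5 kb in either list. This contrast rests on the choice of genes and stretches: the promoters of Rbpj and Maml3, not printed, hold TGGGAA before the start and under their peaks. Sox1 also holds TGGGAA 41 bases after its start, beyond the printed stretch and under its peak in each list. CCAAT has 3 matches at Numb, 1 at Sox1, 0 at Nes and Notch2, 1 at Lfng and 2 at Hey2. Content of G and C ran from 55.8% at Numb to 72.0% at Notch2.

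Among transcription factors of neural stem cells, Sox1, a SOXB1 factor of the neuroectoderm, was the single gene with a start peak. Here and in what follows, a number in parentheses after a fold is the −log10 q of that peak. The H3.3WT peak had 6.15 fold (−log10 q of 6.09) and the H3.3K27M peak 3.58 fold (3.15). By −log10 q they stood at percentile 30.2 of the H3.3WT list and 9.79 of the H3.3K27M list. The peaks overlapped, but their summits lay 370 bp apart, 195 bp before the start in H3.3WT and 175 bp after it in H3.3K27M. Sox2, the SOXB1 factor needed to keep neural stem cells, had no start peak. An H3.3K27M peak of 6.46 fold (−log10 q of 9.52) lay at 34646121 to 34646614 on chromosome 3, with its summit 3693 bp before the start of Sox2, and no H3.3WT peak overlapped it. Sox3, Sox9 and Pax6 had no peak within 5 kb in either list.

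Structural and RNA-binding markers held 4 of the 8 genes with a start peak in the H3.3K27M list alone, among 7 genes. Over all genes 6.78% were marked in that list alone, and a group of 7 is too small to set against that share. Of the 4, Nes alone kept its start peak at −log10 q of at least 5, and also at 5 fold or more. Nes encodes nestin, the intermediate filament protein by which neural stem cells are usually recognised. The gene spans 87971093 to 87980451 on chromosome 3. Its H3.3K27M start peak, at 87970903 to 87971505, had 5.24 fold (−log10 q of 8.03) with the summit 9 bp after the start. A second site inside Nes appeared in each list, with an H3.3WT peak of 6.81 fold (10.4) and an H3.3K27M peak of 6.44 fold (14.4), with summits 3361 and 3469 bp after the start. Another H3.3K27M peak, of 5.39 fold, began 2651 bp beyond the end of the gene. Nes thus had 1 H3.3WT peak and 3 H3.3K27M peaks, and of the latter the shared one had the highest fold and −log10 q.

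Vim, for the filament protein vimentin, had 1 peak, in H3.3K27M, of 3.82 fold (−log10 q of 4.54) with the summit 428 bp after the start. Cdh2, for the adhesion protein N-cadherin, had 2 peaks, both in H3.3K27M. The peak 820 bp inside an end of Cdh2 had 4.70 fold (4.28), and the other, 64.1 kb from the nearer end, 5.74 fold (5.29). By −log10 q these 3 peaks ranked low, at percentiles 19.9, 17.3 and 26.1 of the H3.3K27M list. Prom1, for the surface protein prominin, and Fabp7, for the fatty acid binding protein of radial glia, had no peak.

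The Musashi genes encode RNA-binding proteins of neural progenitors and differed in pattern. Msi1 had 3 peaks in each list, all deep inside the gene and none at an end. A pair of them was in both lists with summits 3 and 29 bp apart, one with 6.16 fold in the H3.3WT list against 4.96 in the other, the second with 4.24 against 5.87. The remaining peak of Msi1 in each list, at 4.22 fold in H3.3WT and 3.81 in H3.3K27M, overlapped no peak of the other. Msi2 spans 379 kb and had 3 H3.3WT peaks of 3.94 to 6.01 fold, the nearest with its summit 88.2 kb from the start. The one of 3.94 fold lay nearer to the start of Ccdc182 than to that of Msi2. In H3.3K27M it had 1 peak, at 3.71 fold (−log10 q of 3.84), with the summit 277 bp before the start. No peak of Msi2 was common to the lists.

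FGF receptors transmit a growth signal on which neural stem cells depend in culture. Of the 8 genes with a start peak in H3.3K27M alone, Fgfr1 had the strongest one, at 25518616 to 25519356 on chromosome 8, with 5.82 fold (−log10 q of 10.7) and the summit 40 bp from a gene end. In H3.3WT the nearest peak on that side, of 6.21 fold, lay 3725 bp away, outside the gene. A site inside Fgfr1 was shared, its H3.3WT peak at 6.18 fold and its H3.3K27M peak at 3.05. Fgfr2 held the strongest peak inside any of the 43 genes, at 130252013 to 130252503 on chromosome 7 in H3.3WT. It had 13.7 fold (−log10 q of 28.1, the 81.6 percentile) in H3.3WT and 6.94 fold (15.1, the 66.2 percentile) in H3.3K27M, and lay 14.6 and 14.5 kb after the start. An H3.3K27M peak of 7.27 fold without an H3.3WT counterpart lay 2032 bp after the start of Fgfr2. Fgfr3 had no peak.

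**Figure D3:**
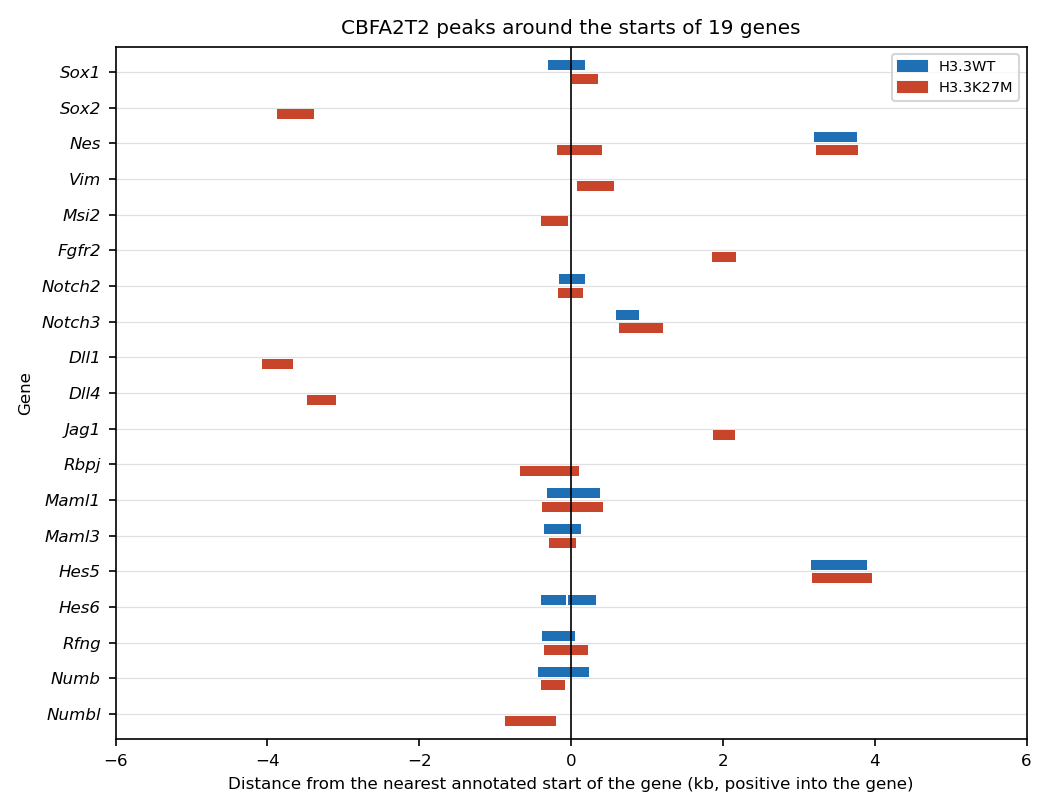
Peaks of the H3.3WT list (blue) and the H3.3K27M list (red), drawn to scale by distance in kb from the nearest annotated start of the gene (vertical line), for the 19 genes with a known start and a peak within 6 kb of it. Distances are positive into the gene. At Notch2, Maml1, Maml3, Rfng and Numb blue and red bars lie together at the start, while Nes, Vim, Msi2, Rbpj and Numbl have a red bar there and no blue one.

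Among the Notch receptors, Notch2 had a start peak in both lists, low in each. The H3.3WT peak had 3.52 fold (2.34) and the H3.3K27M peak 3.75 fold (5.36), with summits 32 bp apart. An H3.3WT peak of 4.88 fold lay inside Notch2, 11050 bp after the start. Notch3 had overlapping peaks in the lists, the H3.3WT one at 4.30 fold (3.31) and the H3.3K27M one at 6.94 fold (11.6). Their summits lay 707 and 1032 bp after the start, on either side of the 1 kb limit, and with overlap as the criterion Notch3 counts with the genes marked in both lists. Notch4 had an H3.3WT peak of 4.94 fold 22746 bp after its start, which lay nearer to the start of its neighbour Gpsm3 (2765 bp). Notch1, the receptor best known from the embryonic nervous system, had no peak in either list.

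No ligand gene had a start peak, and the H3.3WT list held no peak within 5 kb of any of the 5. The H3.3K27M list had a peak before the start of Dll1 (6.67 fold, 3896 bp) and of Dll4 (3.28 fold, 3323 bp), and one inside Jag1 (3.44 fold, 1929 bp). By −log10 q the peaks of Dll1, Dll4 and Jag1 stood at percentiles 45.2, 12.4 and 11.0 of that list. Dll1 is the main ligand of neural progenitors. Jag2 and Dll3, a ligand that inhibits Notch within the same cell, had no peak within 5 kb. The nearest peaks beyond the 5 kb limit were 9765 bp or more from a listed gene. At Msi1 they were an H3.3WT peak of 5.88 fold at 9765 bp and an H3.3K27M peak of 4.49 fold at 9912 bp. At Dll3 it was an H3.3K27M peak of 10.7 fold (30.8) at 9975 bp. The farthest peaks inside the limit were those of Dll1 in H3.3K27M, at a gap of 3658 bp to the gene, and Fgfr1 in H3.3WT, at 3515 bp.

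All 4 genes of the nuclear complex had a peak, and 3 had one at the start in at least 1 list. Over all genes 40.8% had a peak within 5 kb in either list, and a group of 4 is too small to set against that share. Maml1 had broad peaks of 696 and 803 bp over the start, the H3.3WT one at 5.53 fold (10.3) and the H3.3K27M one at 4.54 fold (10.8). Maml3 had 6.37 fold (8.12) and 5.41 fold (7.65) at its start. These Mastermind genes were thus marked in both lists at like −log10 q. Rbpj, the DNA-binding protein of the pathway, had 1 peak, in H3.3K27M, of 3.98 fold (4.37), 774 bp broad, with the summit 3 bp from an annotated start. Maml2 had 1 peak, in H3.3WT, of 4.30 fold (3.31), 37.3 kb after the nearest start. None of the genes of the nuclear complex reached the highest quartile of −log10 q in either list.

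Among targets of the pathway, the highest fold of any peak near the 43 genes, in each list, stood next to Hes5. The H3.3WT peak had 25.4 fold (63.8) and the H3.3K27M peak 26.5 fold (92.6). This peak, at 154964079 to 154964815 on chromosome 4 in H3.3WT, lay beyond the gene, 3476 bp from its start and 276 bp from the start of its neighbour Pank4, a gene of the pantothenate kinase family. Hes5 itself, a target of Notch in neural progenitors, had no start peak. Hes1, its partner in holding back neurogenesis, had 3 peaks in H3.3K27M and none in H3.3WT. They had 3.18, 4.20 and 4.78 fold (−log10 q of 1.87, 5.88 and 4.40). The summits lay 1899 and 996 bp outside one end of the gene and 758 bp inside the other. Hes1 was the single gene with 3 or more peaks in one list and none in the other.

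Hes6, whose product acts against HES1 in differentiating neurons, had the opposite pattern. It had 2 start peaks in H3.3WT, of 4.34 fold (4.41) and 3.88 fold (2.68), and no peak in H3.3K27M. Both ranked low by −log10 q, at percentiles 18.2 and 5.49 of the list. Hey1, Hey2, Heyl and Nrarp, a feedback inhibitor that is itself a Notch target, had no peak in either list.

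Among modifiers, Rfng, a fringe glycosyltransferase that alters how the receptor answers its ligands, had the highest start peak of the 43 genes in H3.3K27M, with 10.5 fold (39.4). Its H3.3WT peak had 5.92 fold (14.7), below that of Numb by fold and by −log10 q. By fold alone it was also below the H3.3WT start peaks of Maml3 (6.37 fold) and Sox1 (6.15 fold). The spans of Rfng and Gps1, a subunit of the COP9 signalosome, are divided by 8 bp (chromosome 11, 120784251 and 120784260). The summits lay 75 and 56 bp from the start of Rfng and 9 and 10 bp from that of Gps1, so the peak cannot be given to one of the genes. Lfng and Mfng, the other fringe genes, had no peak. Numb, an inhibitor of Notch that is handed to one daughter cell in asymmetric division, had an H3.3WT peak of 8.33 fold (14.9) and an H3.3K27M peak of 4.25 fold (5.17), with summits 28 bp apart. Numbl, its relative, had 4.20 fold (3.50) in H3.3K27M alone, 561 bp before its start and 251 bp from the start of Coq8b, a gene of coenzyme Q synthesis. Adam10, the protease of the first activating cut, and the ubiquitin ligases Mib1 and Dtx1 had no peak.

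Sites were called shared where peaks of both lists had 1 bp or more in common. This held for 13 of the 23 H3.3WT peaks (56.5%), beside 79.4% of that whole list. It also held for 13 of the 31 H3.3K27M peaks (41.9%), beside 66.3% of the whole list. Unshared peaks were weaker in both lists, with medians of 4.61 fold against 6.16 for shared ones in H3.3WT and 4.45 against 5.41 in H3.3K27M. The same order held over all peaks, with medians of 4.91 and 6.82 fold in H3.3WT and 4.59 and 6.68 in H3.3K27M. The fold was higher in the H3.3K27M list at 5 of the 13 shared sites (38.5%) and at 46.4% of all 5496 shared sites. Folds of single libraries of unknown depth carry no replicate error, so these are values of 2 libraries set side by side.

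**Figure D4:**
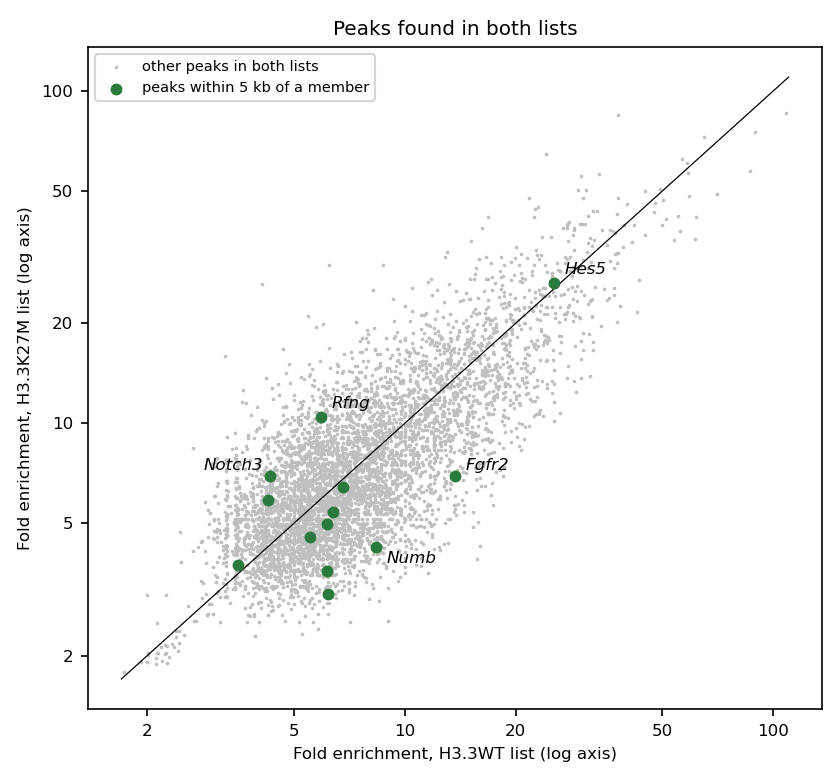
Fold enrichment of peaks found in both lists, H3.3WT on the horizontal and H3.3K27M on the vertical log axis, for 13 sites near the 43 genes (green) and all other shared peaks (grey). The line marks equal values. Most green points lie in the lower part of the cloud, Hes5 stands near the line at 25.4 and 26.5 fold, and Fgfr2 (13.7 and 6.94) and Rfng (5.92 and 10.5) lie on opposite sides of it.

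Of the H3.3WT peaks near the 43 genes 9 of 23 (39.1%) were at the start of the gene, and of the H3.3K27M peaks 15 of 31 (48.4%). Over all peaks, 70.4% and 69.1% were at the start of some protein-coding gene. The shares are not the same measure, since a peak near a listed gene can be at the start of its neighbour. Another 12 H3.3WT and 10 H3.3K27M peaks lay inside the genes, and 2 and 6 outside. The 25 genes with a peak had a median length of 35.1 kb, and the 18 without one 15.8 kb, beside 17.1 kb over all protein-coding genes. A longer gene offers more room for a peak inside it, and its part in these counts was not tested.

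Promoters of the 43 genes were rich in CpG. Over the 33 with an entry, each taken at its most upstream start, the median was 22 CpG in 300 bases (250 before the start and 50 from it), beside 13 over 17492 protein-coding promoters. The 13 with a start peak in either list had a median of 25 CpG and the 20 without one 21.5. Over all promoters the medians were 23 with a start peak and 6 without one. Promoters of the listed genes without a start peak thus had about as many CpG as promoters with a start peak over all genes.

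Motifs were counted on both strands in the same 300 bases. TGGGAA was found in 9 of 33 promoters (27.3%), beside 24.5% of all, and the longer GTGGGAA, which contains it, in 3 (Hes5, Hey2 and Lfng; 9.09%), beside 6.07%. Of the 13 promoters with a start peak, 3 (23.1%) held TGGGAA and 0 held GTGGGAA, beside 22.5% and 5.83% of all promoters with a start peak. Of the 20 without one, 6 held TGGGAA and 3 held GTGGGAA, beside 25.5% and 6.19% of all promoters without a start peak. With so few promoters and no test, these counts cannot show whether the listed genes differ from the rest. The NFY motif CCAAT was in 21 (63.6%) beside 39.2%, and the SP and KLF motif GGGCGG also in 21 (63.6%) beside 46.3%. The E-box CANNTG was in 20 (60.6%) beside 68.8%, and its form CACGTG in 5 (15.2%) beside 7.91%. The N-box of HES proteins, CACNAG, was in 13 (39.4%) beside 41.9%, and its form CACGAG in 3 (9.09%) beside 7.23%. The CRE motif TGACGTCA was in 2 (6.06%) beside 2.33%, and TGACG, a part of it, in 10 (30.3%) beside 23.8%. The ETS motif CCGGAAG was in 1 (3.03%) beside 11.9%, the NRF1 motif CATGCGC in 2 (6.06%) beside 4.88%, and the YY1 motif ATGGCGG in 2 (6.06%) beside 5.44%. Over all promoters, those with a start peak held CCGGAAG more often (25.3% against 5.12% without one), and also TGACG (39.3% against 15.9%). Among the 43 genes TGACG was in 6 of the 13 promoters with a start peak and 4 of the 20 without one. These are counts of letters in a short window, with no test of the motifs.

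Other genes of Notch signalling and of neural progenitors, 90 in all, carried H3.3WT start peaks at 28 (31.1%) and H3.3K27M start peaks at 34 (37.8%). The highest folds among them were at Aak1, Psenen and Epn1, whose products work in endocytosis and receptor cleavage. Of 7 genes of the γ-secretase, the enzyme of the last activating cut, 3 had a start peak in both lists: Psenen (29.6 fold in H3.3WT and 20.9 in H3.3K27M), Aph1a (11.1 and 6.20) and Ncstn (4.51 and 13.1). Of 19 nuclear cofactors, 11 had one in H3.3WT and 13 in H3.3K27M, and by the higher −log10 q of the lists the first 3 were the demethylase gene Kdm5a (−log10 q of 68.7 and 40.2), Snw1 (50.4 and 61.5) and Cir1, a corepressor that binds RBPJ (53.1 and 28.3). In H3.3K27M the acetyltransferase gene Kat2a (49.3) stood above Kdm5a and Cir1. Of 13 genes of ubiquitin transfer and endocytosis, 5 had one in each list, among them the kinase gene Aak1 (32.5 and 17.6 fold), Epn1 (22.8 and 13.5) and Mib2 (11.4 and 13.8). Proteases and glycosylation enzymes had 3 of 8 in each list, with Pofut1 at 5.19 and 5.27 fold, Adam17 at −log10 q of 9.36 and 9.56, and Poglut1 at 6.42 fold in H3.3WT alone. Further ligands and HES genes numbered 9, of which 1 had a start peak, Bhlhe41 at 3.77 fold in H3.3K27M alone. Of 34 further progenitor genes, 6 and 9 had one, with Lin28a at 4.80 and 6.22 fold, Gli3 at 3.83 and 6.61, and Id1 at 5.75 in H3.3K27M alone. The counts within a list stand beside the same 25.6% and 29.6% of all genes as above. The γ-secretase count in both lists stands beside 22.8% of all genes.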

How the data were processed

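CBFA2T2 ChIP-seq peak lists of H3.3WT and H3.3K27M NE-4C cells were used, 1 library per genotype. Trim Galore, MACS2 and the build mm10 are named, without versions, per the submitters' processing notes. Aligner and caller settings are not given in the sources used here. The peak names in the files describe each list as ChIP against input, and carry a code that the labels do not explain. The fold enrichment is a ratio made by the authors, used unchanged. Of the deposited −log10 p and −log10 q values, from the authors' caller, only the latter were used. The deposited score, which was not used, is −log10 q times 10 without its decimals. The lowest −log10 q was 1.33 in H3.3WT and 1.31 in H3.3K27M, so weaker sites are missing and a site near that limit can be in 1 list by a small margin. Depth is unknown and no interval was computed.

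Coordinates are 1-based. Gene spans and promoters came from RefSeq tables of GRCm38.p6. Protein-coding genes with a promoter entry numbered 17492 of 21900, and either gene end was used for the others. Peaks of the lists were called shared at an overlap of 1 bp or more. Peak assignment was tested on simulated peaks. Named genes were all 43 members and, of the other genes, up to 3 per list with the highest −log10 q at the start. Members and lists were chosen with earlier results of these data known. Alternatives were peaks of −log10 q or fold of at least 5, equal list lengths, other windows and other overlap criteria. Python 3.11.15, pandas 2.3.3 and matplotlib 3.10.9 were used.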

Additional observations from a re-analysis of the deposited data

How the results depend on the processing

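Of 61 recomputed counts, 46 stayed within 1.5 times the reported count. Some of these could not move. With equal list lengths the H3.3WT list, the shorter one, kept all its peaks, so its own gene counts stayed the same by construction. With a −log10 q minimum of 5, the H3.3WT list had start peaks at 5 genes (11.6%, beside 21.3% of all genes) and the H3.3K27M list at 8 (18.6%, beside 24.6%). They were at 1 gene in H3.3WT alone (Sox1, 2.33% beside 2.32% of all genes). In H3.3K27M alone they were at 4 (Fgfr1, Hes1, Nes and Notch2, 9.30% beside 5.59%). With peaks of at least 5 fold, 11 genes (25.6%), beside 5695 of all 21900, had an H3.3K27M peak within 5 kb. Start peaks were then at 5 genes in H3.3WT (11.6%, beside 19.6%) and 4 in H3.3K27M (9.30%, beside 19.9%). They were at 2 genes in both (4.65%, beside 15.5%) and 2 in H3.3K27M alone (4.65%, beside 4.35%). Of the H3.3WT peaks near the listed genes, 5 of 12 then overlapped a peak of the other list. Of the H3.3K27M peaks near them, 5 of 14 did. Overlap shares over all peaks of at least 5 fold are not given, so these counts cannot be set against them. With summits within 500 bp of the start, 1 gene was marked in H3.3WT alone and 5 in H3.3K27M alone. A 3 kb window left 1 gene in H3.3WT alone and gave 10 in H3.3K27M alone. Overlap in place of start peaks as the criterion, an alternative chosen after seeing the data, gave 1 and 8. Keeping only peaks nearest to the start of the listed gene, also chosen then, left start peaks at 7 genes in H3.3WT, and at 12 for H3.3K27M. Shares over all genes are not given for these windows and criteria, so the counts cannot be set against them. With equal list lengths, start peaks of H3.3K27M alone were at 6 genes (14.0%), beside 4.52% of all genes. Stricter thresholds keep fewer peaks by construction. No paired analysis was possible because each genotype had 1 library, and none could be left out.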

Other observations

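Values of the peak caller came in steps. In H3.3WT, 5611 of 6920 peaks (81.1%) had the same fold and −log10 q as at least 1 other peak of the list, and 19 of the 23 peaks near the 43 genes did. In H3.3K27M, 6765 of 8272 peaks (81.8%) and 26 of the 31 did. The H3.3WT peaks inside Notch2 and Msi2 at 4.88 fold shared their values with each other and with further peaks, 26 in all. The H3.3WT peaks of Notch3 and Maml2 had 4.30 fold each, values borne by 21 peaks.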
